A study of Homo sapiens with 12 samples.

Results

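The genes described here are 10 secreted factors that act on blood vessels: VEGFA, VEGFB, VEGFC, PGF, ANGPTL4, ADM, PDGFA, PDGFB, FGF2 and EDN1. They were chosen by name, as the rows of the gene table that carry one of these symbols, and each symbol was found once among 60664 genes. All 12 libraries came from MDA-MB-231, a human triple-negative breast cancer cell line of mesenchymal character, and were measured by RNA-seq. They form 3 groups of 4 libraries. The WT normoxia group was wild type and untreated. The WT hypoxia group was wild type and was kept under hypoxia for 24 hr, which the study's methods describe as a chamber flushed with gas of 1% O2. The CCAR2 KO group was labelled as knocked out for CCAR2, the gene of the protein DBC1, and was untreated. No library combined the knockout with hypoxia. Knockout cells were made with a LentiCRISPR construct, and neither the labels nor the methods say whether the sequenced cells were 1 clone or a pool. The study's methods call the replicates biological, but in numbers that differ from the libraries deposited, and the labels do not say whether the libraries of a group came from separate cultures. The p-values therefore measure only the spread between these libraries, part of which may be technical.

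VEGFA, VEGFB, VEGFC and PGF are ligands of the VEGF family: VEGFA drives the growth and permeability of blood vessels through the receptors FLT1 and KDR, PGF and VEGFB bind FLT1, and VEGFC acts mainly on lymphatic endothelium through FLT4. Adrenomedullin, encoded by ADM, relaxes vessels, whereas endothelin-1, encoded by EDN1, constricts them. PDGFA and PDGFB recruit and expand mesenchymal and mural cells, FGF2 is a heparin-binding mitogen of endothelial cells and fibroblasts, and ANGPTL4 inhibits lipoprotein lipase and alters vessel permeability. Several of these genes, VEGFA, ANGPTL4 and ADM among them, are textbook targets of the hypoxia-inducible factors, which bind DNA at short sites with an ACGTG or GCGTG core.

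Promoter sequence is shown because hypoxia was 1 of the 2 conditions and this core is the best-known sequence through which it acts. Each promoter in RefSeq (GRCh38.p14) was searched for ACGTG and GCGTG, on both strands, in the 250 bases before the transcript start. Of 35116 promoters, 43.2% held at least 1 core. Entries were found for 8 members, with 14 promoters, of which 11 held at least 1 core. Each of the 8 members had a core in at least 1 of its promoters, but the 43.2% is per promoter and is no background for this count. The promoter shown was picked first for a start found in GENCODE v29, then for the most cores. The VEGFC start was not found there. PGF, PDGFA and EDN1 also have a promoter with 0 cores, and EDN1 and PDGFA another with 3, not shown. VEGFA and PDGFB are named only. The windows below run 5′ to 3′ on the gene's strand, with the core in capitals, read as CACGT or CACGC where it lies on the opposite strand.
ANGPTL4: aaagaagagtCACGTctcccacggt
EDN1: tctccggctgCACGTtgcctgttgg
VEGFB: ggtggggagcGCGTGtctgggtcac
VEGFC: ccgggctcggCACGCtccctccctc
PGF: gagcccctcgCACGCactgcgggct
ADM: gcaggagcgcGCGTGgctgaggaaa
PDGFA: gggcgggggcGCGTGgcagccgcca
FGF2: tcgcgcgcttGCGTGttgtggccga

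The ANGPTL4 window lies at chr19:8363911-8363935 on the plus strand, in an intron of the gene in GENCODE v29. The EDN1 window is at chr6:12290228-12290252 on the plus strand, 111 bases outside the annotated gene. The VEGFB window at chr11:64234513-64234537 (plus strand) ends 1 base before the annotated gene. Those of VEGFC, at chr4:176792967-176792991 on the minus strand, and PDGFA, at chr7:520398-520422 on the minus strand, lie 240 and 102 bases outside it. The FGF2 window at chr4:122826665-122826689, on the plus strand, lies 19 bases outside the annotated gene. The PGF window, at chr14:74955745-74955769 on the minus strand, and the ADM window, at chr11:10304962-10304986 on the plus strand, overlap a noncoding part of an exon. ANGPTL4 and EDN1 have the ACGTG form and the other 6 the GCGTG form in these windows. A match describes letters only, and members called and not called in the comparisons below both carry one.

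The genes are placed as follows in GENCODE v29 (GRCh38), which may not be the build of the deposited table. VEGFA spans chr6:43770184-43786487 and EDN1 chr6:12290363-12297194, both on the plus strand. VEGFB, at chr11:64234538-64238793, and ADM, at chr11:10304680-10307397, also lie on the plus strand, as do ANGPTL4, at chr19:8363289-8374373, and FGF2, at chr4:122826708-122898236. VEGFC (chr4:176683538-176792727), PGF (chr14:74941834-74955784), PDGFA (chr7:497258-520296) and PDGFB (chr22:39223359-39244751) lie on the minus strand. Antisense genes overlap VEGFA (AL136131.3), VEGFC (AC093801.1), ANGPTL4 (RAB11B-AS1), PDGFB (AL031590.1) and FGF2 (AC021205.3), FGF2 also overlaps NUDT6 on the opposite strand and the pseudogene AC021205.1 on its own strand, and no source used here says that counting used strand, so reads of such an overlap cannot be assigned to one of the pair.

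The labels were first checked against the targeted gene. CCAR2 had 146 ± 3.11 CPM (SD, n = 4) in WT normoxia, 149 ± 4.95 in WT hypoxia and 57.8 ± 2.81 in the KO, where CPM is the deposited value relative to the library's total, on the usual CPM scale, after TMM scaling (trimmed mean of M-values). It was lower in the KO by a log2 fold change of -1.34 ± 0.04 (SE; edgeR quasi-likelihood test, Benjamini-Hochberg adjusted p = 2.14e-09), so the transcript was reduced and not lost. Of 6 well-known hypoxia-responsive genes (CA9, SLC2A1, NDRG1, PDK1, EGLN3 and BNIP3), all 6 were called higher in WT hypoxia, and only EGLN3 was called in the KO against WT normoxia. Their median log2 fold change was 1.72 in hypoxia and 0.40 in the KO. At an unadjusted edgeR p under 0.05, 4 of them were higher and 1 lower in the KO. The summed value per library ran from 153904088 to 213743693 in WT normoxia, from 76384973 to 195621872 in WT hypoxia and from 68599412 to 152328450 in the KO. VIM, CD44, AXL and EGFR, abundant in this line, summed to between 6566 and 7328 CPM in the 12 libraries, while ESR1, PGR and CDH1 had group means of at most 0.307 CPM and EPCAM was at 12.7 to 17.5 CPM. Of 7 endothelial markers, ERG was at 0 and CDH5, VWF, CLDN5 and EMCN had group means of at most 0.418 CPM, PECAM1 was at 2.56, 3.39 and 5.51 CPM in WT normoxia, WT hypoxia and the KO, and ESAM, with group means of 242 to 270.3 CPM, carried most of the list's sum of 237.6 to 279.7 CPM per library. Of 6 mural and fibroblast markers measured, summing to 17.4 to 25.9 CPM, COL1A1 and ACTA2 carried most and DCN and LUM were near 0. PECAM1 and COL1A1 were called higher and ACTA2 lower in the KO against WT normoxia, ACTA2 was called higher in hypoxia, and the part of these in the results below was not tested.

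A gene was called where the Benjamini-Hochberg adjusted p of edgeR's quasi-likelihood test was under 0.05 over all genes tested and the log2 fold change was at least 0.5 in size. All 10 members passed the filter on low values in the 3 comparisons. With 4 libraries against 4, the two-sided exact permutation test cannot go below 0.0286, and it gave that value for every member whose groups did not overlap.

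After hypoxia for 24 hr, 5 of the 10 members were higher in WT cells: ANGPTL4, VEGFA, PGF, PDGFB and ADM. ANGPTL4 changed most, by 5.74-fold, and VEGFA rose 2.11-fold. No member was called lower by edgeR; 1, VEGFC, was lower at an unadjusted p under 0.05, and DESeq2 and limma-voom also called 0 lower and 5 higher. Over the 21776 genes tested, 5.83% were called higher and 1.43% lower. By adjusted p alone, 6 members were higher and 0 lower, against 11.6% and 12% of all genes. The groups did not overlap for 7 members, 6 higher and 1 lower, against 26.4% of all genes in either direction. The median log2 fold change was 0.45 over the members and 0.01 over all genes tested.

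In the CCAR2 KO, 5 of the 10 members differed from WT normoxia, 3 higher and 2 lower. VEGFA, PGF and ANGPTL4 rose, by 1.82-, 1.52- and 1.44-fold, while ADM fell 2.0-fold and EDN1 fell 1.79-fold. Over 21410 genes tested, 6.73% were called higher and 2.94% lower. By adjusted p alone 4 members were higher and 2 lower, against 14.9% and 15.4% of all genes. The groups did not overlap for 7 members, 4 higher and 3 lower, against 30.8% of all genes. The median log2 fold change was -0.09 over the members and 0.01 over all genes. The WT normoxia libraries serve in each of these comparisons, so the values are given side by side and the KO was also set directly against WT hypoxia.

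**Figure D1:**
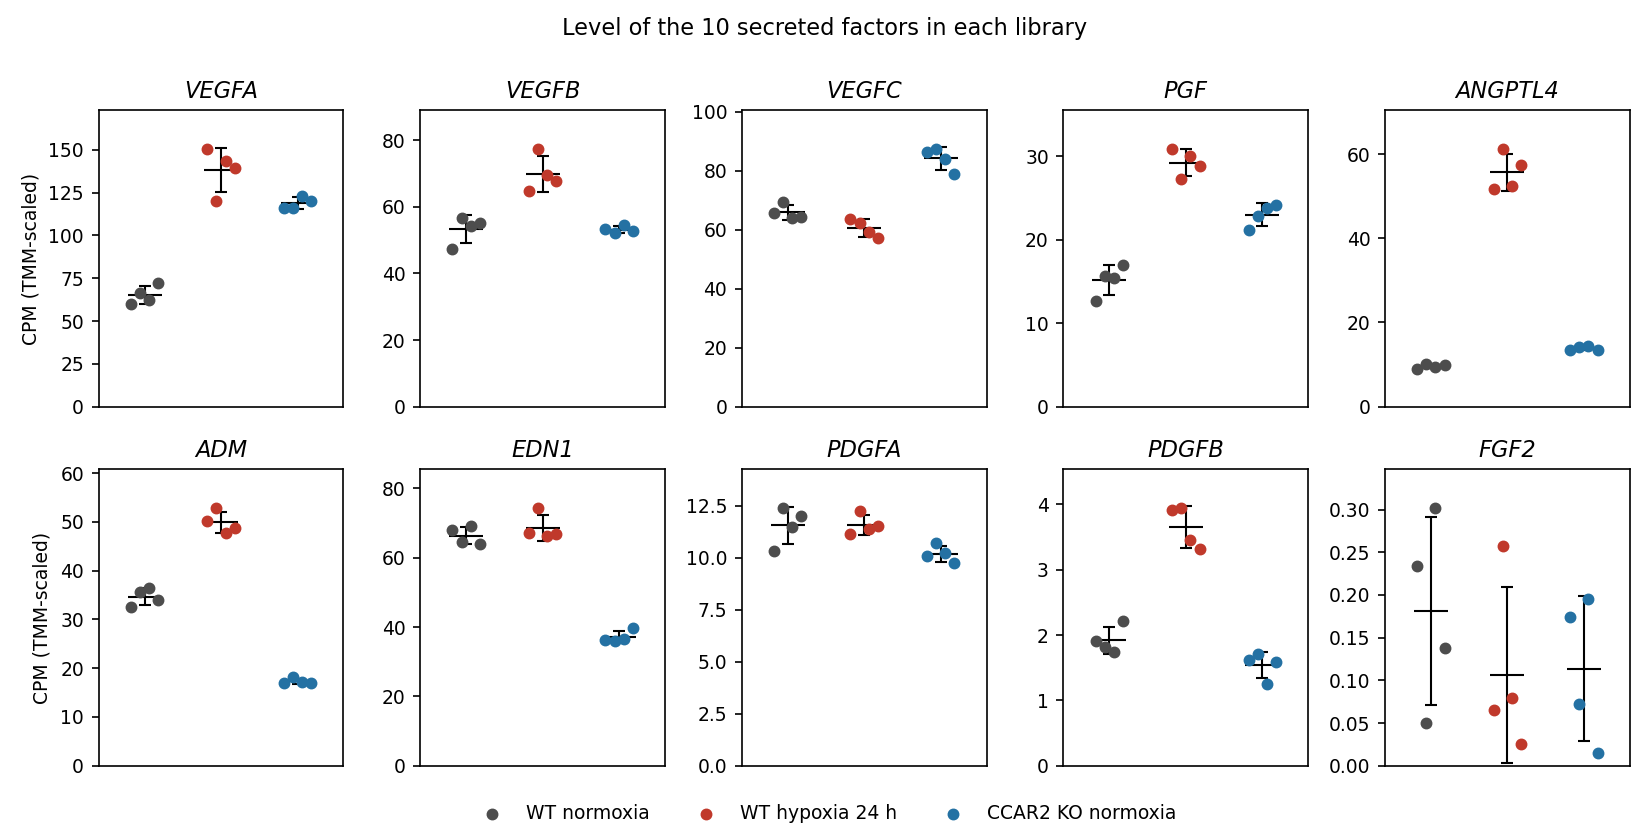
Level of each factor in CPM scaled by TMM (vertical axes, each from 0) in the 12 libraries, as points coloured by group, with the mean and SD of each group (n = 4). ANGPTL4 stands at 51.7 to 61.2 CPM in WT hypoxia and at most 14.3 CPM elsewhere, ADM is high in hypoxia and low in the KO, EDN1 is low in the KO, and the FGF2 groups overlap below 0.31 CPM.

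Among the VEGF family, VEGFA was at 60.2, 66.3, 62.1 and 72.3 CPM in the WT normoxia libraries, at 150.5, 120.3, 143 and 139 CPM in WT hypoxia and at 116, 116, 123 and 120.2 CPM in the KO. All 8 libraries of the other groups lay above every WT normoxia library, and only the lowest hypoxia library fell within the range of the KO. The log2 fold change of VEGFA was 1.08 ± 0.08 (SE) in hypoxia (edgeR adjusted p = 1.21e-05) and 0.86 ± 0.06 in the KO (edgeR adjusted p = 3.15e-07). Set directly against hypoxia, the KO was lower by a log2 fold change of -0.22 ± 0.06 (edgeR adjusted p = 0.0186), which is under the fold limit. The exact permutation p of that difference was 0.0571. When 1 library was left out, its edgeR adjusted p ran from 2.18e-04 (without WT hypoxia replicate 2) to 0.0594 (without CCAR2 KO replicate 2).

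PGF, the placental growth factor that binds FLT1, was at 12.7, 15.6, 15.4 and 16.9 CPM in WT normoxia, at 30.9, 27.3, 30.01 and 28.8 CPM in WT hypoxia and at 21.2, 22.8, 23.8 and 24.2 CPM in the KO. The 3 groups were fully separated, with the KO between the others. Its log2 fold change was 0.94 ± 0.09 (SE) in hypoxia (edgeR adjusted p = 6.11e-05) and 0.60 ± 0.09 in the KO (edgeR adjusted p = 2.33e-04). Between the KO and hypoxia the log2 fold change was -0.35 ± 0.06 (edgeR adjusted p = 0.00121), not called. After a correction of fold changes for GC content, PGF changed by 0.74 in hypoxia and 0.56 in the KO, both still called. Between the KO and hypoxia the corrected value was -0.18 (edgeR adjusted p = 0.0191).

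VEGFB in hypoxia and VEGFC in the KO passed the adjusted p without reaching the fold limit. VEGFB was at 47.4, 56.5, 54.4 and 55.3 CPM in WT normoxia, at 64.7, 77.4, 69.6 and 67.7 CPM in WT hypoxia and at 53.3, 52.1, 54.5 and 52.9 CPM in the KO. Each hypoxia library was above the 8 others, and the KO libraries lay inside the WT normoxia range. Its log2 fold change in hypoxia was 0.38 ± 0.07 (SE; edgeR adjusted p = 0.00375) and in the KO -0.01 ± 0.06 (edgeR adjusted p = 0.952). Its transcript has a GC content of 66.7%, the highest of the members, and after a correction of fold changes for GC content the hypoxia value was 0.15 (adjusted p = 0.123).

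VEGFC was at 65.5, 69.4, 64.1 and 64.4 CPM in WT normoxia, at 63.7, 62.4, 59.1 and 57.0 CPM in WT hypoxia and at 86.5, 87.4, 84.0 and 78.9 CPM in the KO. Here the order differed from that of VEGFA and PGF, since the KO libraries were the highest and the hypoxia libraries the lowest, with a narrow gap between hypoxia and normoxia. The log2 fold change was -0.13 ± 0.05 (SE) in hypoxia (edgeR adjusted p = 0.112) and 0.35 ± 0.04 in the KO (edgeR adjusted p = 8.10e-05). Between the KO and hypoxia it was 0.47 ± 0.05 (edgeR adjusted p = 4.28e-05), just under the fold limit, and without CCAR2 KO replicate 4 it was 0.51 and was called. After the GC correction, VEGFC in hypoxia against normoxia was at -0.18 and passed the adjusted p (edgeR, 0.0387), still under the fold limit.

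ANGPTL4, the angiopoietin-like inhibitor of lipoprotein lipase, was at 8.99, 10.2, 9.48 and 9.91 CPM in WT normoxia, at 51.7, 61.2, 52.4 and 57.3 CPM in WT hypoxia and at 13.4, 14.1, 14.3 and 13.6 CPM in the KO. No group overlapped another, and the hypoxia libraries stood far above both of the others. It differed by a log2 fold change of 2.52 ± 0.07 (SE) in hypoxia (edgeR adjusted p = 2.48e-08) and 0.52 ± 0.07 in the KO (edgeR adjusted p = 7.82e-05). The KO value sat at the fold limit: without WT normoxia replicate 1 it was 0.487, with no filter on low counts 0.498 and after the GC correction 0.476, none of which was called, with adjusted p at or below 2.72e-04 in each. The KO was 4.03-fold below hypoxia (log2 fold change -2.01 ± 0.07 SE, edgeR adjusted p = 6.24e-09). RAB11B-AS1, an antisense gene that overlaps ANGPTL4, was at 0.917 to 1.88 CPM in WT normoxia, 2.14 to 2.595 in WT hypoxia and 1.58 to 2.21 in the KO.

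The vasodilator ADM was called higher in hypoxia, the vasoconstrictor EDN1 was not called there, and both were lower in the KO. ADM was at 32.6, 35.7, 36.4 and 33.9 CPM in WT normoxia, at 50.3, 52.8, 47.8 and 48.8 CPM in WT hypoxia and at 16.9, 18.1, 17.3 and 17.0 CPM in the KO. The 3 groups were apart, in the order KO, normoxia, hypoxia. ADM differed by a log2 fold change of 0.52 ± 0.06 (SE) in hypoxia (edgeR adjusted p = 1.56e-04), -1.0 ± 0.06 in the KO (edgeR adjusted p = 9.70e-08) and -1.53 ± 0.05 between the KO and hypoxia (edgeR adjusted p = 9.21e-09). The hypoxia value was at the fold limit. It was 0.379 after the GC correction, 0.499 with no filter on low counts, 0.488 without WT normoxia replicate 1 and 0.486 without WT hypoxia replicate 2, and was not called in any of these, although the adjusted p stayed at or below 0.00177.

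EDN1 was at 67.9, 64.5, 69.0 and 64.0 CPM in WT normoxia, at 67.0, 74.3, 66.2 and 66.7 CPM in WT hypoxia and at 36.3, 36.04, 36.6 and 39.7 CPM in the KO. The WT groups overlapped, and every KO library was far below every WT library. In hypoxia the log2 fold change was 0.04 ± 0.06 (SE; edgeR adjusted p = 0.670, exact permutation p = 0.429), and without WT hypoxia replicate 2, the highest library, it was -0.0067. In the KO it was -0.84 ± 0.05 against normoxia (edgeR adjusted p = 1.09e-07) and -0.89 ± 0.06 against hypoxia (edgeR adjusted p = 5.19e-07). Per kb of transcript, the ratio of ADM to EDN1 was 0.562 ± 0.0333 (SD, n = 4) in WT normoxia, 0.784 ± 0.0177 in WT hypoxia and 0.503 ± 0.0328 in the KO, so the lower levels of both in the KO left a ratio whose range overlapped that of normoxia.

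Of the PDGF genes, PDGFB was called higher in hypoxia and PDGFA was called in no comparison. PDGFB was at 1.91, 1.81, 1.74 and 2.21 CPM in WT normoxia, at 3.91, 3.94, 3.45 and 3.31 CPM in WT hypoxia and at 1.62, 1.71, 1.25 and 1.58 CPM in the KO. The hypoxia libraries were apart from all others, and the KO libraries lay just below those of normoxia. The log2 fold change was 0.92 ± 0.13 (SE) in hypoxia (edgeR adjusted p = 6.07e-04), -0.32 ± 0.14 in the KO (edgeR adjusted p = 0.121) and -1.25 ± 0.14 between the KO and hypoxia (edgeR adjusted p = 3.69e-05). Counts of PDGFB ran from 119 to 654 per library, the second lowest among the members.

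PDGFA was at 10.3, 12.4, 11.5 and 12.03 CPM in WT normoxia, at 11.1, 12.2, 11.4 and 11.5 CPM in WT hypoxia and at 10.1, 10.7, 10.2 and 9.77 CPM in the KO. The WT groups overlapped throughout, and the KO libraries lay below those of hypoxia and overlapped the low end of normoxia. In hypoxia its log2 fold change was -0.01 ± 0.08 (SE; edgeR adjusted p = 0.968, exact permutation p = 0.943), with a sign that turned under other scalings and filters. The value was -0.18 ± 0.07 in the KO against normoxia (edgeR adjusted p = 0.0895) and -0.19 ± 0.07 against hypoxia (edgeR adjusted p = 0.0692). The ratio of PDGFA to PDGFB per kb was 9.20 ± 1.147 (SD, n = 4) in WT normoxia, 4.83 ± 0.408 in WT hypoxia and 10.2 ± 1.47 in the KO.

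FGF2 had the fewest counts of the members and varied widely between libraries of 1 group. It had 9 to 63 counts per library in WT normoxia, 5 to 21 in WT hypoxia and 2 to 30 in the KO, equal to 0.0502 to 0.302, 0.0253 to 0.257 and 0.0152 to 0.195 CPM. The groups overlapped widely, and libraries of 1 group differed by more than the groups did. The log2 fold change was -0.85 ± 0.72 (SE) in hypoxia (edgeR adjusted p = 0.453) and -0.64 ± 0.68 in the KO (edgeR adjusted p = 0.539), so with this spread between libraries a change of 2-fold either way could not be told from none. NUDT6, which overlaps FGF2 on the opposite strand, was at 5.48 to 8.19 CPM in the 12 libraries.

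In the direct comparison of the KO with WT hypoxia, 4 members were lower in the KO: ANGPTL4, ADM, PDGFB and EDN1. No member was called higher by edgeR. The 1 member higher at an unadjusted p under 0.05, VEGFC, also passed the adjusted p (edgeR, 4.28e-05). Its log2 fold change of 0.47 was under the limit. DESeq2 and limma-voom also called 0 higher, and VEGFC was called after the GC correction. Over the 21158 genes tested, 7.08% were called higher and 7.88% lower. By adjusted p alone 1 member was higher and 7 lower, against 17.1% and 17.8% of all genes. The groups did not overlap for 8 members, 1 higher and 7 lower, against 35.9% of all genes. The median log2 fold change was -0.37 over the members and -0.02 over all genes tested. At a limit of 1 on the log2 scale, 2 members were higher in hypoxia (ANGPTL4 and VEGFA), 1 was lower in the KO against normoxia (ADM), and 3 were lower in the KO against hypoxia (ANGPTL4, ADM and PDGFB). ADM in the KO against normoxia sat at this limit, at -1.0015. It was -0.9804 with upper-quartile scaling and -0.9861 without WT normoxia replicate 3.

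**Figure D2:**
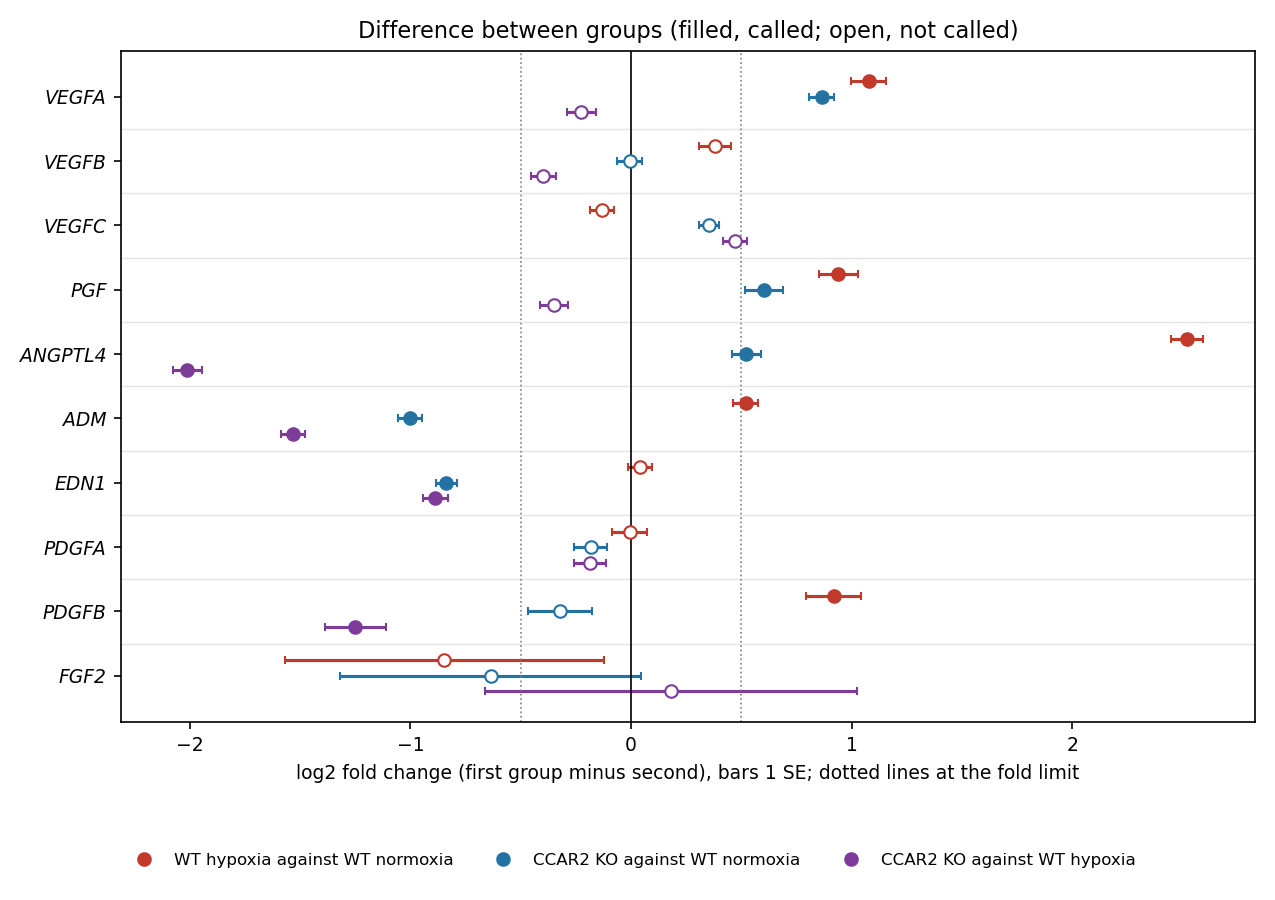
Log2 fold change of each factor (horizontal axis, first group minus second, bars 1 SE) in the 3 comparisons, with filled points for calls, open points for no call and dotted lines at the limit of 0.5. VEGFA, PGF and ANGPTL4 are filled to the right for both hypoxia and the KO against WT normoxia. ADM is filled on opposite sides there, and EDN1 is filled only in the comparisons with the KO.

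Levels of different genes were compared per kb of the longest coding transcript in GENCODE v29. In WT normoxia, VEGFB led with 38.7 ± 2.97 CPM per kb (SD, n = 4), followed by EDN1 (32.6 ± 1.23) and VEGFC (31.9 ± 1.19), whose ranges overlapped. VEGFA (18.4 ± 1.52) and ADM (18.3 ± 0.907) overlapped too, PGF came next (7.86 ± 0.930), and ANGPTL4 (5.13 ± 0.274) and PDGFA (5.01 ± 0.394) overlapped. PDGFB, at 0.549 ± 0.0590, and FGF2, at 0.0267 ± 0.0162 CPM per kb, closed the order.

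In WT hypoxia VEGFB still led, at 50.6 ± 3.92 CPM per kb (SD, n = 4). VEGFA stood at 39.1 ± 3.65, and its range overlapped that of EDN1 (33.7 ± 1.90). ANGPTL4 moved from the seventh to the fourth place, at 29.6 ± 2.39 CPM per kb, overlapping EDN1 above it and VEGFC (29.3 ± 1.47) below it, and VEGFC overlapped ADM (26.4 ± 1.16). PGF, PDGFA, PDGFB and FGF2 followed, at 15.2, 5.02, 1.04 and 0.0157 CPM per kb on average.

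In the KO, VEGFC (40.8 ± 1.84) and VEGFB (38.6 ± 0.715) led with overlapping ranges, followed by VEGFA (33.6 ± 0.977), EDN1 (18.3 ± 0.841), PGF (11.9 ± 0.701), ADM (9.17 ± 0.293) and ANGPTL4 (7.37 ± 0.219 CPM per kb; SD, n = 4), none of which overlapped its neighbour. PDGFA, PDGFB and FGF2 had 4.42, 0.441 and 0.0168 CPM per kb. The places of VEGFA and PGF depend on the length assumed, and those of other members shift with it. For VEGFA the merged exons span 14431 bases against 3535 for the transcript, and per kb of merged exons it had 4.52, 9.59 and 8.23 CPM in the 3 groups, ranks 5, 6 and 4. For PGF they span 5962 bases against 1927, and per kb of merged exons it had 2.54, 4.90 and 3.86 CPM, ranks 8, 7 and 7, below ADM and ANGPTL4 in each group. Per kb of merged exons ANGPTL4 ranked 6, 4 and 6 in WT normoxia, WT hypoxia and the KO, and ADM 4, 5 and 5. The length cancels within a gene, so the fold changes do not depend on it.

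**Figure D3:**
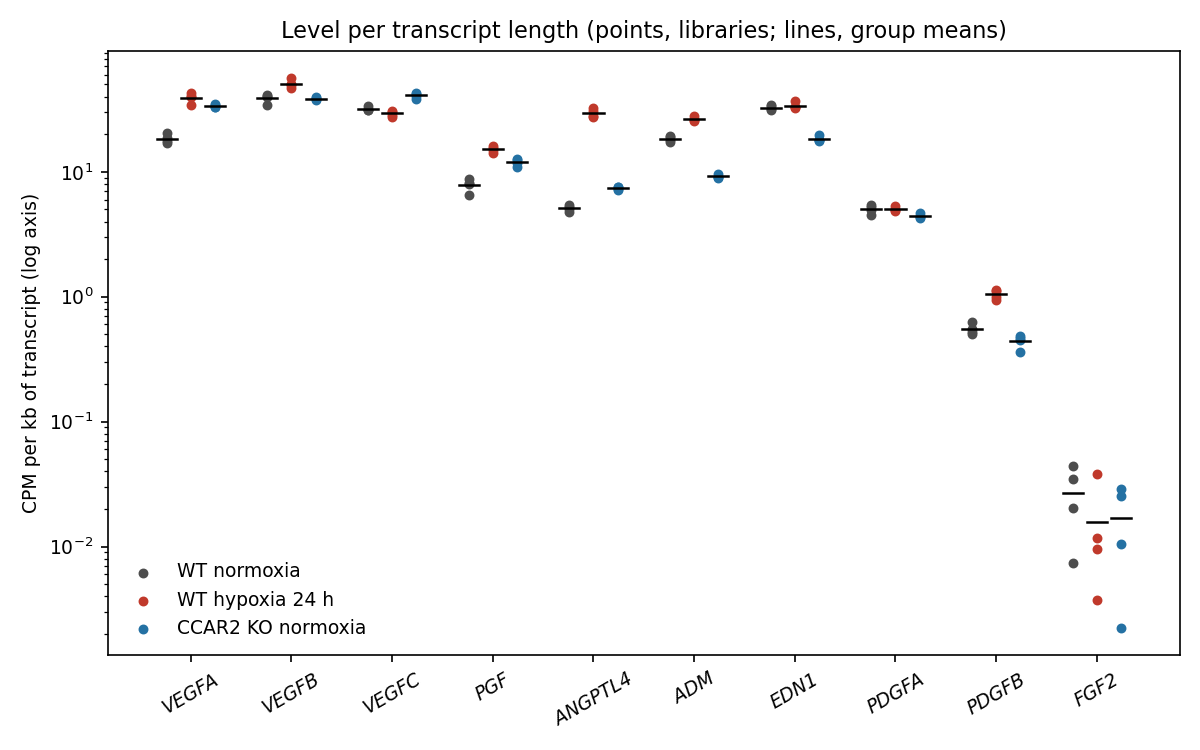
Level of each factor in CPM per kb of its longest coding transcript (vertical log axis) in the 12 libraries, with lines at the group means. VEGFB, VEGFC, EDN1 and VEGFA lie between 17.0 and 56.1 CPM per kb in every library, and FGF2 lies below 0.05.

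The VEGF-type ligands (VEGFA, VEGFB, VEGFC and PGF) together made up 96.9 ± 5.37 CPM per kb (SD, n = 4) in WT normoxia, 134 ± 2.28 in WT hypoxia and 125 ± 1.79 in the KO. VEGFA made up 19.03% ± 0.928 of this sum in WT normoxia, 29.1% ± 2.62 in WT hypoxia and 26.9% ± 0.667 in the KO. The share of VEGFC was 33.0% ± 1.83 in normoxia and 32.7% ± 1.39 in the KO but 21.8% ± 0.825 in hypoxia, while that of VEGFB was 39.9% ± 1.17, 37.7% ± 3.003 and 30.9% ± 0.389 in normoxia, hypoxia and the KO. With merged exon lengths VEGFA had shares of 6.56%, 11.3% and 10.1%, in the same order of the 3 groups. The shares of VEGFB then became 50.2%, 53.3% and 42.3% and those of VEGFC 39.6%, 29.5% and 42.8%, so that VEGFB was higher in hypoxia than in normoxia and VEGFC higher in the KO than in normoxia, opposite to the order of the means above. The ratio of VEGFA to VEGFC per kb of transcript was 0.579 ± 0.0527 in normoxia, 1.34 ± 0.142 in hypoxia and 0.825 ± 0.0558 in the KO, with no overlap between groups. That VEGFA exceeds VEGFC in hypoxia depends on the length. Per kb of merged exons VEGFA had 9.59 CPM there and VEGFC 25.02. These shares are descriptions, with no test, since they pool members chosen by name.

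**Figure D4:**
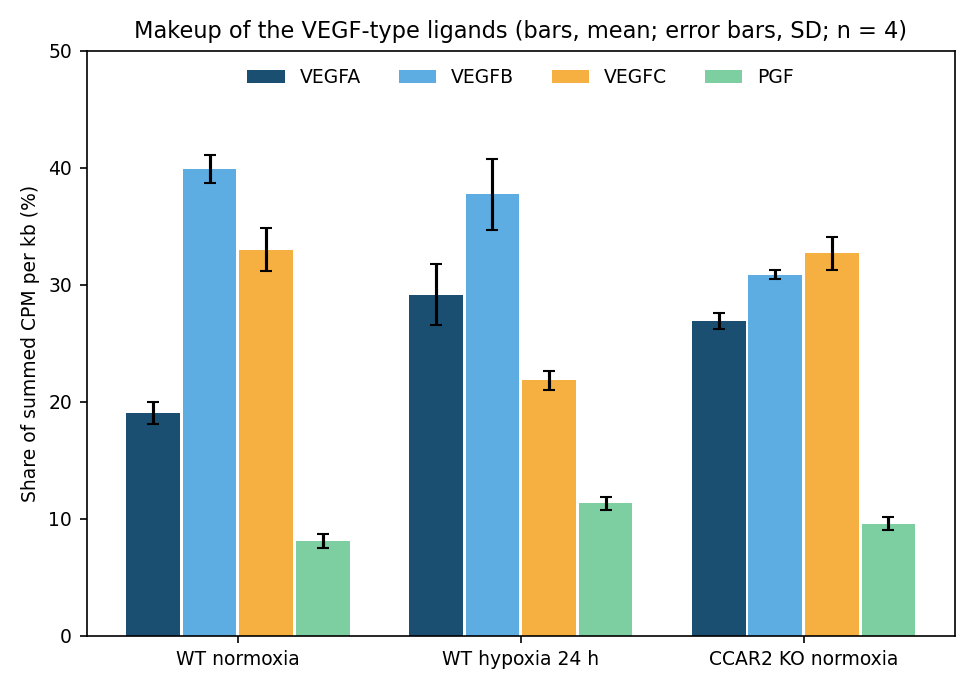
Share of each VEGF-type ligand in their summed CPM per kb (vertical axis, %), as the mean of 4 libraries with SD. VEGFA takes 19.03% in WT normoxia, 29.1% in WT hypoxia and 26.9% in the KO, and VEGFC 33.0%, 21.8% and 32.7%.

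Other ligands of the same families were followed in a list of 18 genes. In hypoxia 2 of 13 tested were called, both higher: FGF1, a sister of FGF2, from 15.7 to 29.8 CPM (log2 fold change 0.92) and EDN2, a sister of EDN1, from 2.49 to 4.48 CPM (0.84). The list's median log2 fold change was 0.15. In the KO 4 of 13 were called higher and 1 lower, with a median of 0.31. ANGPTL2 went from 9.99 to 23.3 CPM (1.22), PDGFD from 3.85 to 6.49 CPM (0.75) and ANGPT2, at under 0.31 CPM, changed by 1.05, whereas FGF1 fell to 9.22 CPM (-0.77). ANGPT1, the fifth called gene, is named beyond the limit of 4 a list (0.73).

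Of 20 receptors and co-receptors, 17 were tested. In hypoxia 3 were called, all higher: FLT1, the receptor of VEGFA, VEGFB and PGF, at 0.105 against 0.267 CPM (log2 fold change 1.33), TIE1 (0.98) and FGFR4 (0.57). The median was 0.10. In the KO 3 were higher and 2 lower, with a median of 0.04. EDNRA, an endothelin receptor, rose from 1.12 to 3.67 CPM (1.71) and NRP1, a co-receptor of VEGF ligands, from 215 to 422 CPM (0.97), while FGFR4 fell from 9.12 to 4.80 CPM (-0.93). PDGFRB, near 1 CPM, changed by 0.62, and TIE1, named as the other lower call, by -0.51. KDR, the main signalling receptor of VEGFA, had group means of 4.66 to 6.12 CPM and was not called in either comparison.

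Enzymes and carriers that cleave, amidate, store, release or degrade the members formed a list of 13, of which 11 were tested. In hypoxia HSPG2, the heparan sulfate proteoglycan perlecan, rose from 133 to 284 CPM (log2 fold change 1.08), and PAM, the enzyme that amidates adrenomedullin, from 120.2 to 191 CPM (0.66). These were the calls of the list in hypoxia, where its median was 0.09. In the KO 5 of the 11 were called, each higher, and the median was 0.52. PCSK5, a convertase, changed by 1.23 at under 0.3 CPM, FGFBP1, a carrier that releases FGF ligands, by 1.12 at up to 1.30 CPM, ADAMTS3, a protease that processes VEGFC, by 0.82, and GPC1, a glypican, by 0.59. ECE1, the endothelin-converting enzyme, named after its value was seen, rose from 204 to 292 CPM (0.52) in the same libraries in which EDN1 was lower.

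Secreted inhibitors of angiogenesis were higher in the KO in 5 of 11 tested genes and lower in 1, with a median log2 fold change of 0.50. THBS1, thrombospondin-1, rose from 308 to 614 CPM (0.99), TIMP3, a metalloproteinase inhibitor that also binds KDR, from 132 to 280 CPM (1.08), COL18A1, the precursor of endostatin, from 34.4 to 75.8 CPM (1.14) and ISM1 from 3.38 to 7.74 CPM (1.195). VASH2, which is known to promote vessel growth although it stands in this list with its homologue VASH1, was the lower one (-0.77), and SEMA3A was the remaining higher one (0.66); both are named beyond the limit of 4. In hypoxia 1 of 11 was called, ISM1, which fell (-0.77), and the median was 0.0046. Set directly against hypoxia, the KO had 5 of 11 called, each higher. VEGFA and these inhibitors were thus both higher in the KO than in WT normoxia.

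Among 21 other angiogenic factors, 18 were tested, and 3 were higher and 3 lower in hypoxia. STC1, stanniocalcin, rose from 14.2 to 50.05 CPM (log2 fold change 1.81) and APLN, apelin, from 6.47 to 15.6 CPM (1.26), while IL6 (-0.81) fell and ANG, angiogenin, rose (0.75). EREG and NTN4 were the other lower calls, at -0.61 and -0.52. In the KO 5 were higher and 1 lower. EREG, an EGF receptor ligand, rose from 36.2 to 106 CPM (1.55), IL6 changed by 1.37, TGFA by 0.92 and STC1 by 0.83, and APLN was the lower call (-0.50). The list's median was 0.14 in hypoxia and 0.06 in the KO.

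Other vasoactive pathways gave few calls. Of 12 genes tested from a list of 17, PTGS2, the inducible cyclooxygenase, was the call in hypoxia (12.4 to 18.7 CPM, log2 fold change 0.58), with a list median of 0.32. In the KO the calls were PTGES, a prostaglandin E synthase, from 11.7 to 34.4 CPM (1.55), and TBXAS1, thromboxane synthase, from 5.81 to 11.8 CPM (1.03), with a median of 0.07. Of 13 known regulators of member genes, all tested, HIF1A mRNA was the call in hypoxia, from 263 to 106 CPM (-1.32), and in the KO HIF1A rose to 412 CPM (0.65) and EPAS1, the gene of HIF-2α, from 26.8 to 71.7 CPM (1.42). The regulator list had a median of -0.10 in hypoxia and 0.18 in the KO. All list medians stand beside 0.01 for all genes tested in either comparison. The list counts stand beside 5.83% of all genes called higher and 1.43% lower in hypoxia, and 6.73% and 2.94% in the KO against WT normoxia. For the inhibitors in the KO against hypoxia, these shares were 7.08% and 7.88%.

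For each member with a mean of at least 1 CPM, the genes with the most similar profile over the 12 libraries were sought among 11153 genes with a mean of at least 5 CPM, by Pearson's r of log2 CPM. The points share their libraries and fall into 3 groups, so r mainly reflects the relative spacing of the 3 group means and is a description with no test. VEGFA was most like BHLHE40 (r = 0.997), SEMA4B (0.984) and SLC2A1 (0.984), and ANGPTL4 was most like RASSF4 (0.996), NDRG1 (0.995) and ERRFI1 (0.993). PDGFB was most like MXI1 (0.984), GBE1 (0.973) and PAQR7 (0.973).

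ADM was most like SLC37A4 (0.997), TAGLN (0.996) and KRTAP2-3 (0.996), a keratin-associated gene with near-identical copies whose counts are uncertain. EDN1 was most like CBX1 (0.995), STXBP6 (0.988) and DDAH1 (0.987). For PGF these were OBSL1, EHBP1L1 and FBXO2 (0.981 to 0.992), for VEGFB BCAT2, AP1S1 and TMEM175 (0.978 to 0.988), and for VEGFC OAS2, SPATS2 and DCBLD1 (0.980 to 0.983). PDGFA had the lowest values, with GTF3C5, TBX1 and CDC26 at 0.934 to 0.949. In these bulk libraries, fewer cells that make a transcript and less of it per cell cannot be told apart.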

How the data were processed

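The 12 libraries were made from total RNA, per the labels with an Illumina TruSeq kit. The study's methods instead name a NEBNext kit and say that the RNA sequenced was poly-A+. The submitters' processing notes name HISAT2, SAMtools and featureCounts, with no versions, while the study's methods name Hisat2 and StringTie, so the counter is uncertain. The genome build and the strand setting are not given in the sources used here. The deposited table holds whole-number values per gene, treated as estimated counts made by the authors with no normalization stated. In each library more genes have a value of 4 than of 3 or 5, and an alternative therefore divided all values by 4. Libraries were mapped to groups by title, and no pair of libraries in a group had identical values.

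Fits were made in R 4.3.3 with edgeR 4.0.16 (filterByExpr, TMM, quasi-likelihood F test, Benjamini-Hochberg adjustment over all genes tested), for each pair of groups separately. A call needed an adjusted p under 0.05 and a log2 fold change of at least 0.5 in size. The scripts were tested on simulated data. DESeq2 1.42.0, limma-voom (limma 3.58.1), other scalings and filters, a correction for transcript GC content, a replicate block and leaving out each library were alternatives. Single members were also compared by two-sided exact permutation tests of mean log2 CPM. Coordinates, lengths and overlaps come from GENCODE v29 (GRCh38), and promoter sequences from RefSeq (GRCh38.p14). All members were named, with at most 4 called genes per list and comparison, by size of change, and the 3 most similar genes per member, for which 0.5 was added to CPM. Members, lists and tests were chosen with earlier results of these data known.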

Additional observations from a re-analysis of the deposited data

Results flagged for a closer look

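In 30 groups of 4 libraries (10 members in 3 groups), 2 had a library that stood apart by Dixon's ratio of the gap to the group's range; about 1.5 of 30 are passed by chance. Both were EDN1: WT hypoxia replicate 2 was the highest of its group at 74.3 CPM (ratio 0.896), and CCAR2 KO replicate 4 the highest of its group at 39.7 CPM (ratio 0.849). The cause was not tested.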

How the results depend on the processing

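Of 564 alternative log2 fold changes of members, 536 kept their direction and their side of the threshold, 9 lost a call, 3 gained one and 16 turned sign. Of 126 alternative counts of members, 8 moved by more than a set tolerance, and smaller shifts were not counted as moves. Members called higher in hypoxia, 5 above, were 4 after the GC correction and 6 by adjusted p alone. Those called higher in the KO against normoxia, 3 above, were 2 and 4. Those lower in the KO against hypoxia, 4 above, were 3 at a log2 limit of 1. At a log2 limit of 1, 2 members were higher in hypoxia, and 0 were higher and 1 lower in the KO against normoxia. The lower member, ADM, sat at that limit. In the KO against hypoxia, 1 member was higher (VEGFC) after the GC correction, after the GC correction with the replicate block and by adjusted p alone (0 to 1 when leaving out 1 library), and 7 were lower by adjusted p alone. Signs turned only for values near 0 or, for FGF2, of large error. PDGFA in hypoxia became 0.0450 with upper-quartile scaling, 0.0110 with at least 10 counts in every library, 0.0021 with 12 libraries in 1 fit and 0.0156 with values divided by 4 (leaving out 1 library, -0.0601 to 0.0321). VEGFB in the KO became 0.0151 with upper-quartile scaling and 0.0039 with values divided by 4 (-0.0617 to 0.0140). Leaving out 1 library gave EDN1 in hypoxia -0.0067 to 0.0586, and FGF2 in the KO against hypoxia -0.23 to 1.05. FGF2 has no value with at least 10 counts in every library or with values divided by 4. Whether replicate numbers pair the libraries was not settled. The correlation of same-numbered deviations was -0.009 to 0.191 in hypoxia against normoxia. It was -0.072 to 0.079 in the KO against normoxia and 0.02 to 0.092 in the KO against hypoxia. Differently numbered libraries were not correlated for reference, so these values cannot decide the question. With the replicate block, 5 members were higher in hypoxia, and 1183 genes were called higher and 324 lower against 1270 and 312 without it. Genes called lower in hypoxia numbered 192 with upper-quartile scaling. The calls of ADM in hypoxia and ANGPTL4 in the KO rest on values at the fold limit, and FGF2, with 2 to 63 counts per library, has the largest errors of the members.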
